A study of Homo sapiens with 12 samples.

Results

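A set of 10 genes was followed in polysome-associated mRNA of 3 established triple-negative breast cancer (TNBC) cell lines. They are CD274, PDCD1LG2, CD276, CD47, PVR, NECTIN2, MICA, MICB, ULBP2 and NT5E. Their proteins sit on the tumor cell surface and act on T cells, macrophages or natural killer (NK) cells, NT5E through adenosine. The genes were taken by symbol, with all transcripts of a symbol added up, and are 10 of the 24559 gene symbols in the table. MDA-MB-231 and SUM159 carried a knockdown (KD) of TRMT112, the cofactor that stabilizes several methyltransferases of rRNA and tRNA, and BT549 an overexpression (OE) of it. Each line had 2 libraries with the TRMT112 construct and 2 with the control construct that the labels call EV, which gives 12 libraries in 6 groups. The labels give no other treatment for any group. According to the methods, the KD cells carried a vector for a TRMT112 short hairpin RNA introduced by lipofection, their EV controls a hairpin that targets no gene, and the BT549 cells an open reading frame of TRMT112 or the empty expression vector. Transfected cells were selected, with puromycin for the knockdown constructs and G418 for overexpression. Neither labels nor methods say whether the selected cells were pools or clones. Differences between these cell populations other than TRMT112 were not tested. BT549 grew in RPMI medium, MDA-MB-231 and SUM159 in DMEM/F-12, and only SUM159 received insulin and hydrocortisone. Nothing in the labels says that the 2 libraries of a group came from separate cultures, so p-values measure only the spread between these libraries, which may be technical.

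Immune checkpoint ligands are surface proteins that bind receptors on immune cells and restrain them. PD-L1 (CD274) and PD-L2 (PDCD1LG2) engage PD-1 on T cells, CD47 engages SIRP-alpha on macrophages and holds back phagocytosis, and CD276 (B7-H3) belongs to the same B7 family as the PD-1 ligands but its receptor is not settled. PVR and NECTIN2 are nectin family proteins that bind the inhibitory receptor TIGIT and the activating receptor DNAM-1 on NK and T cells. MICA, MICB and ULBP2 are stress-induced relatives of MHC class I that bind the activating receptor NKG2D and mark a cell for NK killing. NT5E (CD73) is an ectoenzyme that turns extracellular AMP into adenosine, which suppresses T and NK cells. Surface PD-L1 is induced above all by interferon gamma, through JAK kinases and IRF1.

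The libraries held between 22954226 and 27434677 expected counts, that is, reads divided among the transcripts they could come from. Levels are given below in CPM, counts scaled to a common library total, where TMM scaling sets that total by the genes that change least between libraries. A CPM value is thus a share of the sequenced polysome RNA and not an amount per cell. The paper reports lower polysome peaks with KD and higher ones with OE, a change in total that CPM does not show. Higher and lower below refer to such shares. TRMT112 itself was at 173 and 165 CPM in MDA-MB-231 EV and 73.8 and 70.4 CPM in KD, and at 265 and 275 CPM in SUM159 EV and 163 and 155 CPM in KD. In BT549 it stood at 129 and 129 CPM in EV and 179 and 181 CPM in OE, a 1.40-fold difference beside 2.35-fold and 1.70-fold reductions in the KD lines. The labels of the lines fit their known deletions: CDKN2A, which MDA-MB-231 lacks, was at 0 in all 4 MDA-MB-231 libraries and at a mean of 1349 CPM in BT549 EV and 1109 CPM in BT549 OE. Of 14 leukocyte markers 7 had a row, and their summed level was between 0.59 and 3.98 CPM in every library, with CD14 the highest at 3.79 CPM in BT549 OE. The summed level of 5 epithelial markers was between 403 and 759 CPM in the MDA-MB-231 and SUM159 libraries and between 1.75 and 3.94 CPM in those of BT549. This gap lay in the keratins KRT8 and KRT18, while the epithelial adhesion proteins CDH1 and EPCAM and the keratin KRT19 had group means of at most 2.97 CPM in all lines, with CDH1 highest in BT549 EV at 2.39 CPM. The cells of a library were pooled before sequencing, so fewer cells with an mRNA and less of it per cell cannot be told apart. Without total RNA libraries the amount of an mRNA and its loading with ribosomes cannot be told apart either.

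Promoter sequences are shown for 4 of the genes, because CD274 carries the letters that its known inducers bind and because the paralogs MICA and MICB and their relative ULBP2 are compared below. They are RefSeq sequences (GRCh38.p14) of 300 bases each, from 250 bases before the start of transcription to 50 bases from the start on, written 5′ to 3′ with capitals for matches of 5 motifs searched on both strands: the interferon regulatory factor pair GAAANNGAAA, the gamma-activated element (GAS) TTCNNNGAA, the AP-1 site TGANTCA, an NF-kB site GGGNNTTTCC and the heat shock element GAANNTTCNNGAA. A sixth motif, the hypoxia response core ACGTG, is left in lower case. CD274 lies at chr9:5450292-5450591 (plus strand), MICA at chr6:31403345-31403644 (plus strand), MICB at chr6:31497895-31498194 (plus strand) and ULBP2 at chr6:149941764-149942063 (plus strand).
CD274: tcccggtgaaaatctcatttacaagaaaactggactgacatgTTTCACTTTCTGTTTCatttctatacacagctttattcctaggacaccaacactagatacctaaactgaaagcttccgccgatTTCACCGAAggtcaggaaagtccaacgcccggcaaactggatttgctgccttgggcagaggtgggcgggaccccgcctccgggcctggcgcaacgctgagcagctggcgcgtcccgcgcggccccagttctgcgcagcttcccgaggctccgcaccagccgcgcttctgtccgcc
MICA: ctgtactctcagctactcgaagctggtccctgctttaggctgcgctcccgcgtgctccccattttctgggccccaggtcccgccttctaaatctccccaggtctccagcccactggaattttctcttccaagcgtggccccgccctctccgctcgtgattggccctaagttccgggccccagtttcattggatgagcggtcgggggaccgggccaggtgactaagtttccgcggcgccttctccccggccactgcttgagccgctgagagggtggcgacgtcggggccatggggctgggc
MICB: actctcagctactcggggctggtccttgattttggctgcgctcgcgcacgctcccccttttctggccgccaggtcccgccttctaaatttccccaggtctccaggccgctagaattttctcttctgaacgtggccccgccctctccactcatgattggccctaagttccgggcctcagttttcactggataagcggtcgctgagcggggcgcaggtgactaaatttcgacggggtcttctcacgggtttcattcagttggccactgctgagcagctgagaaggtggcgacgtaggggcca
ULBP2: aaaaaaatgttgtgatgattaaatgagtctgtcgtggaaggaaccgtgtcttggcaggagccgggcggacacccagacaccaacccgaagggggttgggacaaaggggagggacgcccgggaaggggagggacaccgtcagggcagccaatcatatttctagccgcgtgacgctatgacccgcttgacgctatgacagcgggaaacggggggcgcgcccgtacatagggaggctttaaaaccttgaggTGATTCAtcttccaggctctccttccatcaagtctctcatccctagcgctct
The CD274 promoter held 2 overlapping matches of the interferon regulatory factor pair, on the other strand at positions -208 to -199 and -202 to -193 counted from the start base, and 1 GAS match at -125 to -117. Of all 35116 promoters in the table, 3.57% held the pair and 7.66% the GAS letters. The ULBP2 promoter held an AP-1 match that spans the start, at -2 to 4, as 7.71% of all promoters held one somewhere. Neither MICA nor MICB held any of the 5 capitalized motifs, and MICB had the hypoxia core at -123 to -119, letters found in 21.4% of promoters. Aligned with unpaired ends left out, the MICA and MICB promoters shared 248 of 301 aligned positions, gaps included, or 82.4%. The hypoxia core also occurred in the CD47 promoter and in 1 of the 2 promoters of CD276, while NECTIN2, NT5E and PVR held none of the 6 motifs. A match of letters is a description and not a measured binding site.

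Levels of different genes were compared per transcript length, in TPM, the share of a gene among all transcripts of the library after division by their length, on a common scale. In MDA-MB-231 EV, NECTIN2 led with 314 ± 3.36 TPM (SD, n = 2), followed by NT5E with 231 ± 8.49 TPM, PVR with 124 ± 1.42 TPM, MICA with 76.8 ± 2.19 TPM and CD274 with 72.4 ± 1.15 TPM. SUM159 EV had PVR at the top, at 147 ± 1.86 TPM, and CD274 at the bottom, at 2.53 ± 0.16 TPM. In BT549 EV, NT5E led with 339 ± 0.25 TPM, MICA reached 159 ± 1.62 TPM and CD47 144 ± 0.84 TPM, whereas ULBP2 was lowest at 1.14 ± 0.36 TPM. From the lowest to the highest of the 6 groups, mean CPM spanned 114-fold for CD274, 29.6-fold for ULBP2 and 12.1-fold for NT5E, but 1.65-fold for PVR.

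**Figure D1:**
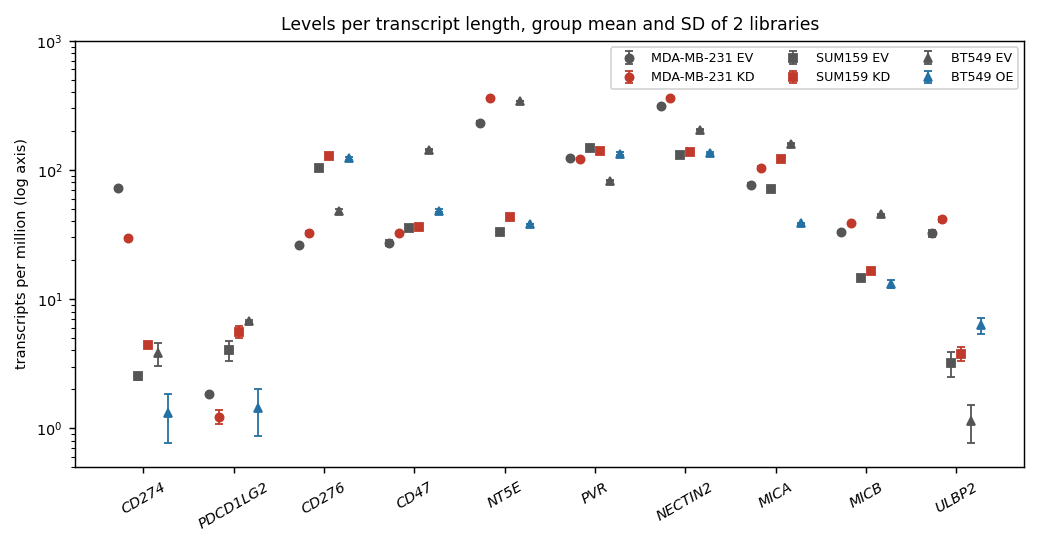
Group means in TPM (log axis) of the 10 genes in the 6 groups, with the SD of 2 libraries as error bars; circles are MDA-MB-231, squares SUM159 and triangles BT549, in grey for EV, red for KD and blue for OE. PVR and NECTIN2 were at 82.6 TPM or more in every group, while CD274 ranged from 72.4 TPM in MDA-MB-231 EV to 1.31 TPM in BT549 OE.

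All 10 genes passed the filter on low counts. The test was the quasi-likelihood test of edgeR, and a gene was called at a Benjamini-Hochberg adjusted p under 0.05 over all 16538 genes tested. In MDA-MB-231 KD against EV 7 of the 10 were higher and 1 was lower, where 37.7% of all genes tested were called, 21.2% higher and 16.5% lower. PDCD1LG2 and PVR were not called there. In SUM159 KD 8 were higher and 0 lower, and both genes not called, PVR (log2 fold change 0.04) and ULBP2 (0.37), had differences above 0. There 60.1% of all genes were called, 28.6% higher and 31.4% lower. In BT549 OE all 10 were called, 3 higher and 7 lower, beside 70.6% of all genes, 35.6% higher and 35.0% lower. The median log2 fold change of the 10 was 0.35 in MDA-MB-231, 0.39 in SUM159 and -1.62 in BT549, beside medians over all genes of 0.00, 0.00 and 0.02. Sizes in BT549 were larger in general: 8 of the 10 changed at least 2-fold, as did 31.3% of all genes there, against 3.2% of all genes in MDA-MB-231 KD and 15.7% in SUM159 KD. CD276, CD47, NECTIN2, MICA, MICB and NT5E were higher in both KD lines, a pattern of 8.86% of all genes, and 5 of these 6, all but CD276, were lower in BT549 OE, a pattern of 3.83% of all genes. CD274 was the 1 member that fell in MDA-MB-231 KD and rose in SUM159 KD, a pattern of 4.87% of all genes. The KD effects of the 2 lines differed for 5 of the 10, with 2 higher and 3 lower in MDA-MB-231, beside 50.9% of all genes (27.7% higher, 23.2% lower), and 2 of the 5 differed at least 2-fold, as did 15.0% of all genes.

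The EV controls of the 3 lines, which share libraries with the comparisons above, differed in nearly every member. MDA-MB-231 had 5 members higher and 4 lower than SUM159, beside 75.7% of all genes called (36.4% higher, 39.2% lower). BT549 had 6 higher and 4 lower than MDA-MB-231, beside 79.5% of all genes (39.1% higher, 40.4% lower), and 7 higher and 3 lower than SUM159, beside 78.4% of all genes (37.7% higher, 40.7% lower). At least 2-fold differences were found for 6, 7 and 5 members in these comparisons, and for 36.9%, 45.4% and 43.7% of all genes. CD274 was 21.2-fold higher in MDA-MB-231 than in SUM159 (log2 difference 4.40, standard error, SE, of 0.08, edgeR adjusted p = 1.05e-22) and 14.7-fold higher than in BT549. ULBP2 was 8.76-fold and 21.5-fold higher in MDA-MB-231 than in SUM159 and BT549, respectively. NT5E and CD47 had their highest EV level in BT549, 12.1-fold and 4.54-fold above SUM159.

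**Figure D2:**
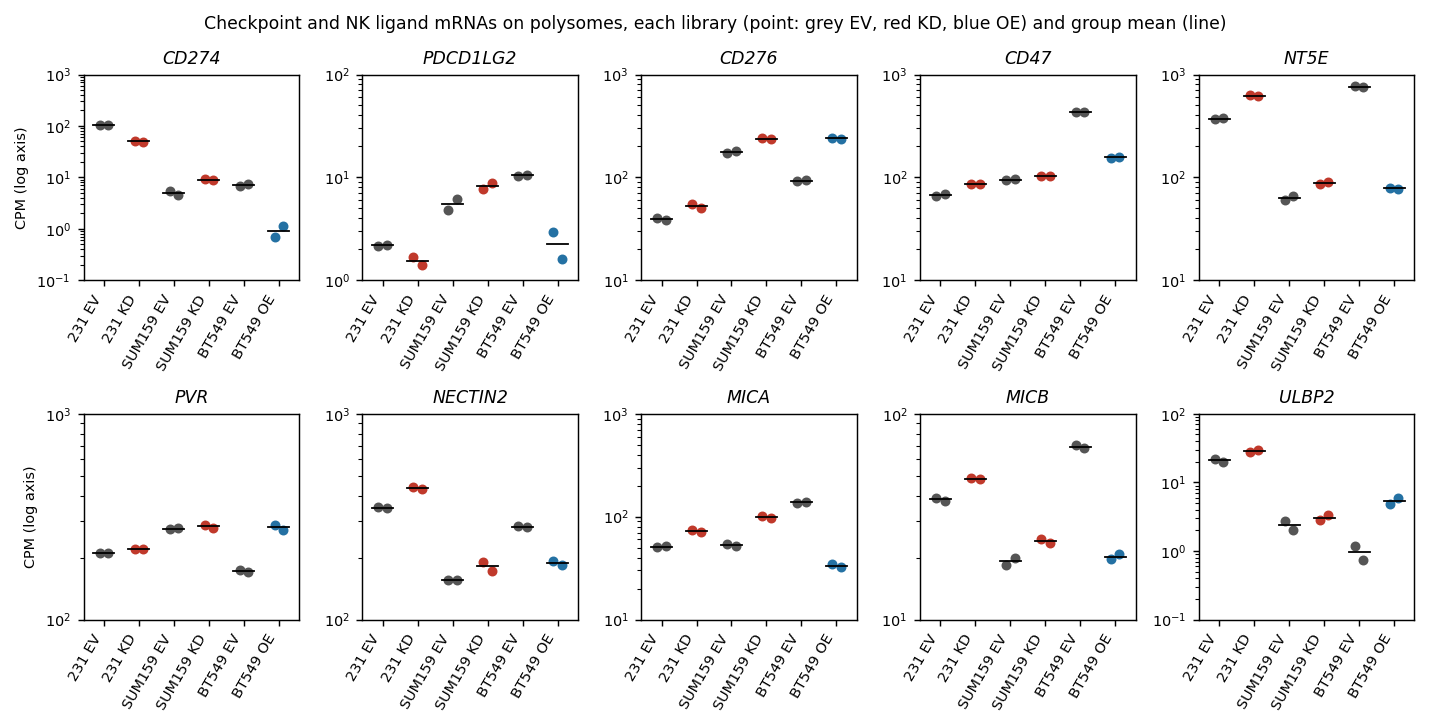
CPM of each of the 10 genes (log axis, its range set per gene) in each of the 12 libraries, with a line at the group mean; grey points are EV, red KD and blue OE, and 231 stands for MDA-MB-231. The 2 libraries of a group lie visibly apart at some low levels, as for PDCD1LG2 (2.92 and 1.61 CPM) and CD274 (0.69 and 1.14 CPM) in BT549 OE, and CD274 falls with KD in MDA-MB-231 but rises with KD in SUM159.

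CD274, on chromosome 9 from 5450503 to 5470566, had the largest difference between the KD effects of the 2 lines among the 10 genes. In MDA-MB-231 it was at 104 and 105 CPM in EV and at 52.1 and 49.6 CPM in KD. Both KD libraries lay below both EV libraries, and the level fell by 1.04 on the log2 scale (SE 0.06, edgeR adjusted p = 3.41e-12). In SUM159, where the gene was far scarcer, EV had 5.32 and 4.54 CPM and KD 9.11 and 9.04 CPM. Here the KD libraries lay above the EV libraries, with a log2 fold change of 0.88 (SE 0.12, edgeR adjusted p = 7.04e-07). The difference between the 2 KD effects was -1.92 on the log2 scale (SE 0.13, edgeR adjusted p = 1.81e-11). BT549 EV had 6.87 and 7.32 CPM and BT549 OE 0.69 and 1.14 CPM, the latter from 15 and 24 counts. The OE libraries were below the EV libraries by a log2 fold change of -2.95 (SE 0.19, edgeR adjusted p = 1.93e-12). Over the 6 groups the order was MDA-MB-231 EV, MDA-MB-231 KD, SUM159 KD, BT549 EV, SUM159 EV and BT549 OE, and no neighbours in it overlapped.

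PDCD1LG2 begins 39964 bases beyond the end of CD274 on the same chromosome (from 5510531 to 5571282), and was low throughout. MDA-MB-231 had 2.16 and 2.21 CPM in EV and 1.69 and 1.41 CPM in KD. The libraries did not overlap, but with 35 to 58 counts each the log2 fold change of -0.50 (SE 0.26) did not pass the test (edgeR adjusted p = 0.149). SUM159 had 4.77 and 6.18 CPM in EV and 7.72 and 8.79 CPM in KD, a log2 fold change of 0.59 (SE 0.18, edgeR adjusted p = 0.0069). That call was lost without SUM159 EV replicate 1 (log2 fold change 0.42, edgeR adjusted p = 0.11) and without SUM159 KD replicate 2 (0.50, edgeR adjusted p = 0.0729). The KD effects of the 2 lines differed by -1.09 (SE 0.32, edgeR adjusted p = 0.00611), in the same direction as for CD274. That call and the one in SUM159 KD were lost when transcripts were tested in place of genes (-1.08, SE 0.46, edgeR adjusted p = 0.223, and 0.58, SE 0.31, edgeR adjusted p = 0.32), although PDCD1LG2 has 1 transcript. In BT549 the gene went from 10.4 and 10.6 CPM in EV to 2.92 and 1.61 CPM in OE, a log2 fold change of -2.20 (SE 0.21, edgeR adjusted p = 1.79e-09). Unlike CD274, PDCD1LG2 was highest in BT549 EV and lowest in MDA-MB-231 KD, with BT549 OE and MDA-MB-231 EV overlapping.

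CD276, on chromosome 15 from 73683966 to 73714514, was the 1 gene of the 10 that was higher in all 3 comparisons with TRMT112, as were 3.86% of all genes. It was at 40.2 and 38.8 CPM in MDA-MB-231 EV and 54.5 and 50.9 CPM in KD, and at 174 and 180.1 CPM in SUM159 EV and 239 and 236 CPM in KD. Every KD library exceeded every EV library of its line. The log2 fold changes were 0.42 in MDA-MB-231 (SE 0.05, edgeR adjusted p = 4.71e-07) and 0.42 in SUM159 (SE 0.04, edgeR adjusted p = 5.67e-10), and their difference of -0.0040 (SE 0.06, edgeR adjusted p = 1.00) changed sign without the filter. BT549 EV had 91.3 and 94.6 CPM and OE 242 and 236 CPM, a log2 fold change of 1.36 (SE 0.04, edgeR adjusted p = 3.84e-19). BT549 OE and SUM159 KD overlapped at the top of the order and MDA-MB-231 EV was at the bottom.

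CD47, on chromosome 3 from 108043091 to 108091862 on the minus strand, was highest in BT549. BT549 EV had 434 and 429 CPM and BT549 OE 155 and 159 CPM, well apart, with a log2 fold change of -1.46 (SE 0.03, edgeR adjusted p = 5.59e-21). In MDA-MB-231 the level went from 65.8 and 68.8 CPM in EV to 86.5 and 86.3 CPM in KD, a log2 fold change of 0.36 (SE 0.04, edgeR adjusted p = 1.80e-07). SUM159 moved least, from 93.4 and 96.9 CPM to 103 and 104 CPM, and its log2 fold change of 0.13 (SE 0.04, edgeR adjusted p = 0.00652) was not called without SUM159 EV replicate 1 (0.10, edgeR adjusted p = 0.0999) or with library size alone as the scaling (0.09, edgeR adjusted p = 0.051). The KD effects differed by 0.23 between the lines (SE 0.06, edgeR adjusted p = 0.00108). No groups that are neighbours in level overlapped. SIRPA, the gene of the CD47 receptor, had its own mRNA in 2 of these lines, at 109 ± 1.48 CPM in SUM159 EV, 163 ± 1.73 CPM in SUM159 KD, 152 ± 2.64 CPM in BT549 EV and 338 ± 3.96 CPM in BT549 OE, but at no more than 2.70 CPM in any MDA-MB-231 library.

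NT5E, on chromosome 6 from 85449584 to 85495791, showed the largest change of the 10 genes. It was at 765 and 763 CPM in BT549 EV and 78.9 and 77.9 CPM in OE, 9.74-fold apart (log2 fold change -3.28, SE 0.04, edgeR adjusted p = 4.16e-27). In MDA-MB-231 it was at 367 and 380.4 CPM in EV and 627 and 620.4 CPM in KD. These libraries were well separated, by a log2 fold change of 0.74 (SE 0.03, edgeR adjusted p = 1.52e-14). SUM159 had 60.8 and 65.2 CPM in EV and 86.7 and 90.6 CPM in KD, a log2 fold change of 0.49 (SE 0.04, edgeR adjusted p = 2.96e-10). The increase with KD was thus present in both lines and larger in MDA-MB-231, by 0.25 (SE 0.05, edgeR adjusted p = 0.000285). The BT549 OE level lay between those of SUM159 EV and SUM159 KD.

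**Figure D3:**
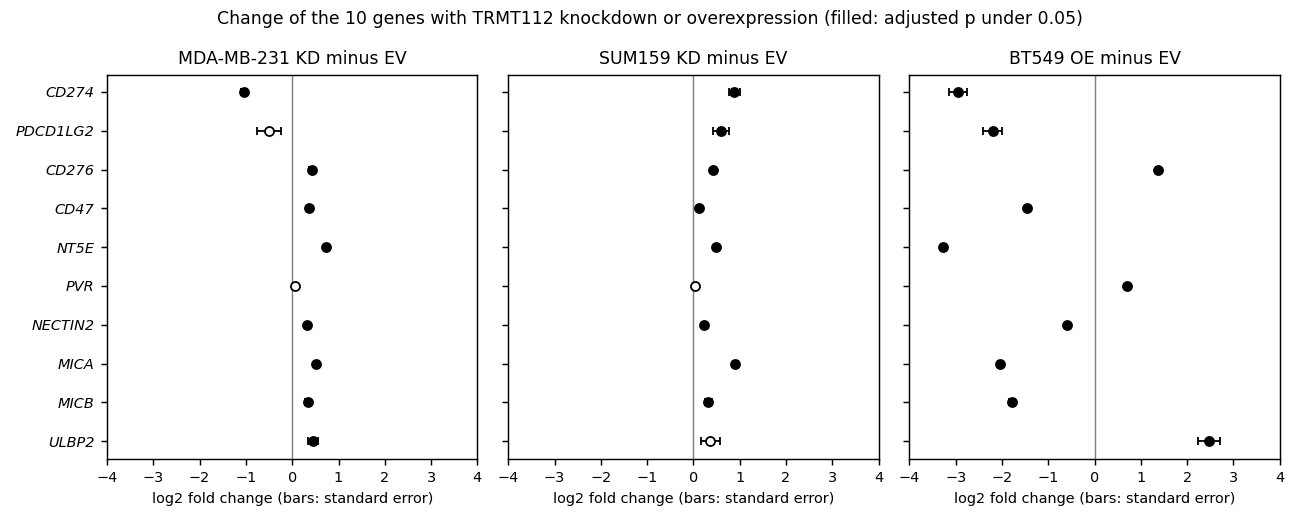
Fitted log2 fold change (x axis) of the 10 genes (rows) for MDA-MB-231 KD, SUM159 KD and BT549 OE, each against its EV, with the SE as bars and filled points for an adjusted p under 0.05. In the KD panels CD274 and PDCD1LG2 in MDA-MB-231 are the 2 points left of 0, and in BT549 only CD276, PVR and ULBP2 lie right of 0.

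The nectin pair lies on chromosome 19, PVR from 44643798 to 44666162 and NECTIN2 from 44846175 to 44889223, 180012 bases apart. PVR was not called with KD. It was at 210.2 and 210.3 CPM in MDA-MB-231 EV and 221 and 221 CPM in KD, and at 276 and 278 CPM in SUM159 EV and 288 and 280.1 CPM in KD. The libraries did not overlap, but the log2 fold changes of 0.07 (SE 0.03, edgeR adjusted p = 0.101) and 0.04 (SE 0.03, edgeR adjusted p = 0.369) did not pass the test. With RLE size factors both passed it (0.09 in both lines, edgeR adjusted p = 0.0287 and 0.0178). With DESeq2, the test the methods name, both were called as well (0.09 in both lines, DESeq2 adjusted p = 0.0241 and 0.0149). With library size alone they turned to -0.0197 and -0.0017. In BT549 PVR was clearly higher with OE, at 288 and 273 CPM against 175 and 169 CPM in EV (log2 fold change 0.71, SE 0.03, edgeR adjusted p = 5.56e-15). Of the 11715 distinct windows of 150 bases in the 12 annotated PVR transcripts, 16.0% also occur in an overlapping gene model without a symbol (ENSG00000279095), so part of the PVR reads could be counted there.

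NECTIN2 stood above PVR per length in MDA-MB-231 EV, as given above, and was at 351 and 347 CPM in EV and 441 and 433 CPM in KD there, a log2 fold change of 0.32 (SE 0.04, edgeR adjusted p = 1.06e-07). SUM159 had 156 and 155 CPM in EV and 191 and 173 CPM in KD, a log2 fold change of 0.23 (SE 0.04, edgeR adjusted p = 2.38e-05). Both lines moved the same way, and the KD effects differed by 0.10 (SE 0.05, edgeR adjusted p = 0.126). Without the filter on low counts this difference was called (0.12, edgeR adjusted p = 0.0442), and without SUM159 KD replicate 1 it was 0.17. In BT549 NECTIN2 went against PVR, from 285 and 281 CPM in EV to 192 and 184 CPM in OE (log2 fold change -0.59, SE 0.04, edgeR adjusted p = 1.69e-12). BT549 OE and SUM159 KD could not be ordered for NECTIN2, since their libraries overlapped.

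MICA and MICB, genes of the MHC region on chromosome 6 (MICA from 31399784 to 31415315, MICB from 31494881 to 31511124), moved in the same direction in each line. MICA was at 50.2 and 51.6 CPM in MDA-MB-231 EV and 74.5 and 71.0 CPM in KD, and at 53.9 and 51.6 CPM in SUM159 EV and 102 and 96.5 CPM in KD. The EV levels of the 2 lines overlapped and did not differ by the test (log2 difference -0.05, SE 0.05, edgeR adjusted p = 0.383), a sign that turned with other scalings. From that like level MICA rose in both, by 0.51 in MDA-MB-231 (SE 0.05, edgeR adjusted p = 1.83e-08) and by 0.91 in SUM159 (SE 0.05, edgeR adjusted p = 8.54e-14). The KD effect was smaller in MDA-MB-231, by a log2 difference of -0.39 (SE 0.07, edgeR adjusted p = 4.12e-05). MICB was at 38.9 and 37.9 CPM in MDA-MB-231 EV and 48.6 and 48.3 CPM in KD, and at 18.4 and 20.0 CPM in SUM159 EV and 24.6 and 23.4 CPM in KD. Its log2 fold changes were 0.34 (SE 0.06, edgeR adjusted p = 6.79e-05) and 0.32 (SE 0.07, edgeR adjusted p = 0.000426), with a difference between the lines of 0.02 (SE 0.09, edgeR adjusted p = 0.947) that was below 0 with other scalings. Taken by itself, the transcript MICB-204 had -0.07 in MDA-MB-231 KD (SE 0.17, edgeR adjusted p = 0.978).

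In BT549 both MIC genes fell with OE. MICA went from 137 and 138 CPM in EV to 34.4 and 32.3 CPM in OE, a log2 fold change of -2.05 (SE 0.05, edgeR adjusted p = 2.78e-20). MICB went from 70.2 and 68.3 CPM to 19.6 and 20.7 CPM, a log2 fold change of -1.78 (SE 0.06, edgeR adjusted p = 2.52e-17). BT549 thus had the highest level of both in EV, and in OE the lowest of MICA, while its MICB overlapped with SUM159 EV. None of the 4290 distinct windows of 150 bases in the 8 annotated MICA transcripts, nor of the 2793 in the 4 of MICB, occurs in a transcript of another gene.

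ULBP2, further along chromosome 6 from 149942014 to 149949235, went the other way in BT549. EV had 1.19 and 0.74 CPM, from 26 and 16 counts, and OE 4.91 and 5.87 CPM, a log2 fold change of 2.47 (SE 0.23, edgeR adjusted p = 1.23e-09). It was most abundant in MDA-MB-231, at 21.8 and 20.0 CPM in EV and 27.7 and 29.4 CPM in KD. There it rose by 0.45 on the log2 scale (SE 0.10, edgeR adjusted p = 0.00141), a call lost when transcripts were tested in place of genes (0.45, SE 0.22, edgeR adjusted p = 0.431), although ULBP2 has 1 transcript. SUM159 had 2.74 and 2.02 CPM in EV and 2.83 and 3.29 CPM in KD, and the log2 fold change of 0.37 (SE 0.20) was not called (edgeR adjusted p = 0.121), though it was without SUM159 EV replicate 1 (0.60, edgeR adjusted p = 0.0479). The KD effects of the 2 lines differed by 0.08 with an SE of 0.23 (edgeR adjusted p = 0.826). In 4.3% of its windows of 150 bases ULBP2 is identical to its relative RAET1L.

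The receptors and transcription factors that induce PD-L1 were examined as a list of 11 genes. In MDA-MB-231 KD 4 were higher and 3 lower, with a median log2 fold change of -0.06. In SUM159 KD 1 was higher and 9 lower (median -0.63), while CD274 was higher. In BT549 OE 0 were higher and 9 lower (median -0.90), and CD274 was lower too. Of all genes tested, 21.2% were higher and 16.5% lower in MDA-MB-231 KD, 28.6% and 31.4% in SUM159 KD, and 35.6% and 35.0% in BT549 OE, and these shares are the background for the counts of the lists that follow as well. IRF1, the interferon-induced factor that acts on CD274, was at 165 ± 3.60 CPM in BT549 EV and 20.5 ± 0.08 CPM in OE (SD, n = 2; log2 fold change -3.01, SE 0.07, edgeR adjusted p = 3.25e-21). In the KD lines IRF1 and CD274 went in opposite directions. IRF1 was 0.45 higher on the log2 scale in MDA-MB-231 KD (SE 0.08, edgeR adjusted p = 0.000107), where CD274 fell, and had a log2 fold change of -2.10 in SUM159 KD (SE 0.09, edgeR adjusted p = 2.10e-15), where CD274 rose. The IRF1 effects of the lines differed by 2.55 (SE 0.12, edgeR adjusted p = 4.24e-14), against -1.92 for CD274. NFKB1, a subunit of NF-kB, was lower in SUM159 KD, with a log2 fold change of -1.93 (SE 0.06), and JUN, a subunit of AP-1, was higher there, with 1.27 (SE 0.05).

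**Figure D4:**
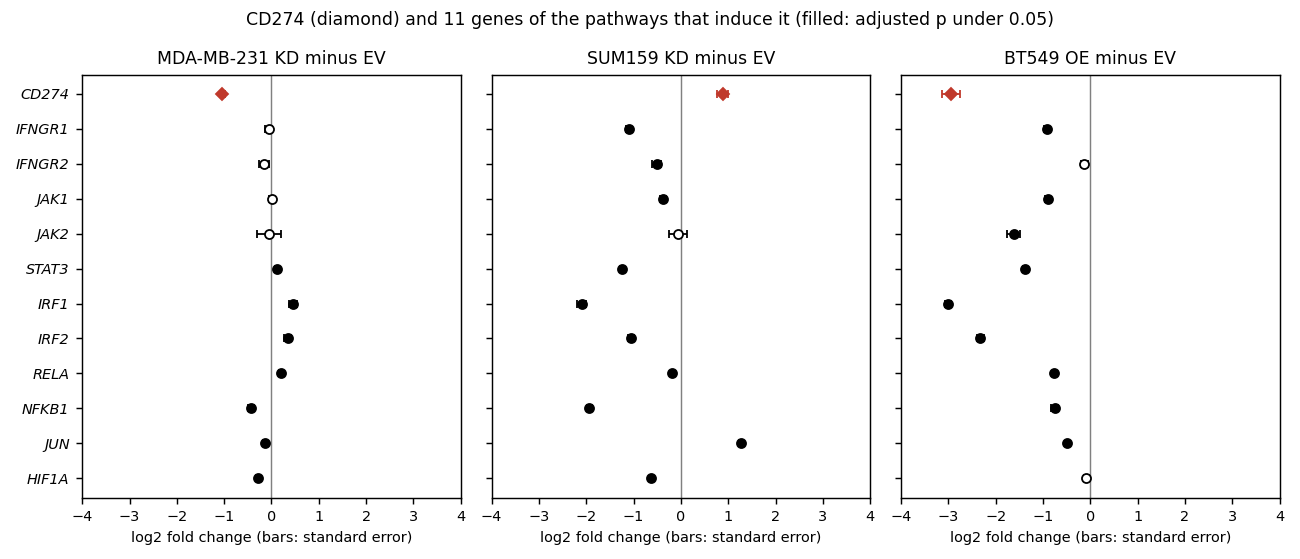
Fitted log2 fold change (x axis) of CD274 (red diamond) and of the 11 genes of the pathways that induce it (black) in the 3 comparisons, with the SE as bars and filled points for an adjusted p under 0.05. In SUM159 KD CD274 lies to the right of 0 and 9 of the 11 genes to the left with filled points, and in BT549 OE CD274 and 9 of the 11 lie to the left with filled points.

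A list of 14 proteins that mature, stabilize or degrade PD-L1 or CD47 was also tested: 4 were higher and 1 lower in MDA-MB-231 KD, 6 and 4 in SUM159 KD, and 5 and 4 in BT549 OE, with medians of 0.08, 0.10 and 0.04. STUB1, a ubiquitin ligase that directs PD-L1 to degradation, was higher in SUM159 KD (log2 fold change 0.59, SE 0.04) and in BT549 OE (1.61, SE 0.05). ZDHHC3, a palmitoyltransferase that protects PD-L1, was higher in SUM159 KD (0.99, SE 0.05). CMTM4, which stabilizes PD-L1 at the surface, was lower in MDA-MB-231 KD (-0.46, SE 0.06) and higher in BT549 OE (2.55, SE 0.11).

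Among 24 other checkpoint ligands 17 had a row and 14 were tested. In MDA-MB-231 KD 7 were higher and 1 lower (median log2 fold change 0.33), in SUM159 KD 4 and 7 (-0.35), and in BT549 OE 1 and 11 (-3.20). VSIR, the gene of the checkpoint protein VISTA, went from 16.5 ± 0.65 to 32.2 ± 0.01 CPM in MDA-MB-231 and from 84.5 ± 2.29 to 207 ± 7.60 CPM in SUM159 with KD. CD24, the ligand of Siglec-10 on macrophages, went from 5.22 ± 0.55 to 96.2 ± 1.19 CPM with KD in SUM159 (edgeR adjusted p = 2.66e-23), but was lower in MDA-MB-231 KD (log2 fold change -0.37, SE 0.06, edgeR adjusted p = 2.01e-05) and higher in BT549 OE (0.86, SE 0.04, edgeR adjusted p = 2.03e-15). HLA-E, the ligand of the inhibitory NK receptor NKG2A, went from 1949 ± 46.4 CPM in BT549 EV to 227 ± 4.23 CPM in OE. IDO1, the tryptophan-degrading enzyme induced by interferon, went from 92.4 ± 0.86 to 1.48 ± 0.32 CPM there, and BTN3A1, a butyrophilin seen by gamma delta T cells, had a log2 fold change of -3.40 (SE 0.09). ICOSLG, the ligand of ICOS on T cells, fell in SUM159 KD with a log2 fold change of -3.85 (SE 0.25).

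A further list held 20 genes of other NK receptor ligands, adhesion partners and death receptors on the target cell, of which 17 were tested. In MDA-MB-231 KD 4 were higher and 1 lower, in SUM159 KD 1 and 10, and in BT549 OE 5 and 8, with median log2 fold changes of 0.14, -0.52 and -0.46. NECTIN1, a nectin bound by CD96, went from 218 ± 4.04 to 21.5 ± 1.08 CPM in SUM159 KD and from 13.6 ± 0.99 to 90.4 ± 1.45 CPM in BT549 OE. ICAM1, the adhesion partner of the leukocyte integrin LFA-1, was lower in both KD lines, with log2 fold changes of -0.91 in MDA-MB-231 (SE 0.09) and -3.72 in SUM159 (SE 0.09). TNFRSF10B, a receptor of the death ligand TRAIL, went from 189 ± 3.92 to 109 ± 3.63 CPM in SUM159 KD and from 76.5 ± 2.69 to 9.97 ± 0.51 CPM in BT549 OE. CADM1, the ligand of the NK receptor CRTAM, was near 0 in BT549 EV (0.11 ± 0.10 CPM) and at 128 ± 3.44 CPM in OE.

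The 11 genes of adenosine handling around NT5E gave counts in SUM159 KD near the shares of all genes: 5 were higher and 2 lower in MDA-MB-231 KD, 4 and 3 in SUM159 KD, and 6 and 2 in BT549 OE, with median log2 fold changes of 0.08, -0.07 and 0.32. ENPP1, an ectoenzyme upstream of NT5E that makes AMP, was higher in MDA-MB-231 KD (log2 fold change 0.81, SE 0.09), as was ADA, which removes adenosine by deamination (0.58, SE 0.09). In SUM159 KD ENPP1 (0.35, SE 0.12) and ADA (0.35, SE 0.06) were higher too. The adenosine receptor gene ADORA2A was higher in MDA-MB-231 KD (0.62, SE 0.21) and SUM159 KD (1.92, SE 0.40). Its level in SUM159 was low, at 0.32 ± 0.15 CPM in EV and 1.22 ± 0.30 CPM in KD. In BT549 OE, where NT5E fell, ADA (2.54, SE 0.13) and ADORA2A (2.66, SE 0.17) were higher as well, so both rose in all 3 comparisons. ADORA1, another adenosine receptor gene, had 0 counts in both BT549 EV libraries and 58.4 ± 8.17 CPM in OE, at least 420-fold higher when set against 3 counts in a library. SLC29A1, an adenosine transporter, was lower in SUM159 KD (-0.79, SE 0.04).

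Proteases and partners that shed MICA, MICB and ULBP2 from the surface make a list of 6 genes. In MDA-MB-231 KD 3 were higher and 0 lower, in SUM159 KD 3 and 3, and in BT549 OE 4 and 2, with medians of 0.12, -0.05 and 0.24. MMP14, a membrane protease that cleaves MICA, rose in both KD lines, from 69.3 ± 0.46 to 93.5 ± 1.32 CPM in MDA-MB-231 and from 11.9 ± 0.69 to 47.2 ± 1.67 CPM in SUM159. ADAM17, a sheddase, was lower in SUM159 KD (log2 fold change -1.13, SE 0.07). TIMP3, an inhibitor of these proteases, had 0 counts in BT549 EV and 71.8 ± 3.66 CPM in OE, at least 516-fold higher against 3 counts in a library.

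Which transcripts supplied the counts of a gene differed between the lines. Shares are of a gene's counts, which the authors' counting divided among overlapping transcripts. MICB-201, the reference transcript of 383 residues, held 65.1% and 56.0% of MICB counts in the MDA-MB-231 EV libraries but 0.05% and 4.35% in SUM159 EV, where MICB-204 (351 residues) held 96.7% and 93.5%. BT549 EV stood between, with 19.4% and 19.0% for MICB-201. NECTIN2-201 (538 residues) held 47.1% ± 0.14 in MDA-MB-231 EV (SD, n = 2) against 25.7% ± 0.53 in SUM159 EV and 28.2% ± 1.58 in BT549 EV, and NECTIN2-202 (479 residues) most of the rest. KD libraries had 51.3% ± 1.31 (MDA-MB-231) and 32.6% ± 0.21 (SUM159), above every EV library of its line. Tested by itself among all transcripts, NECTIN2-201 rose in SUM159 KD (log2 fold change 0.56, SE 0.07, edgeR adjusted p = 0.000375), whereas NECTIN2-202 had 0.07 (SE 0.05, edgeR adjusted p = 0.505). CD274-202, which encodes the full-length PD-L1 of 290 residues, held between 95.0% and 99.8% of CD274 counts in every library but those of BT549 OE, where it held 56.7% and 56.9% and the rest lay in CD274-203 and CD274-205, short transcripts without an annotated coding sequence. These BT549 OE shares rest on 15 and 24 counts of the gene. Neither CD274-203 (log2 fold change -0.47, SE 1.15) nor CD274-205 (5.36, SE 2.11) was called in BT549 OE. CD274-202 alone had a log2 fold change in BT549 OE of -3.65 (SE 0.18, edgeR adjusted p = 2.04e-07). CD47-201 (305 residues) rather than the reference transcript CD47-202 (323 residues) held between 87.5% and 95.4% of CD47 counts. PVR was the most divided: its reference transcript PVR-205 held between 6.96% and 16.6%, PVR-201, annotated as a target of nonsense-mediated decay, between 12.8% and 25.5%, and PVR-203 had group means between 25.8% and 37.8%. PDCD1LG2 and ULBP2 have 1 transcript each.

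**Figure D5:**
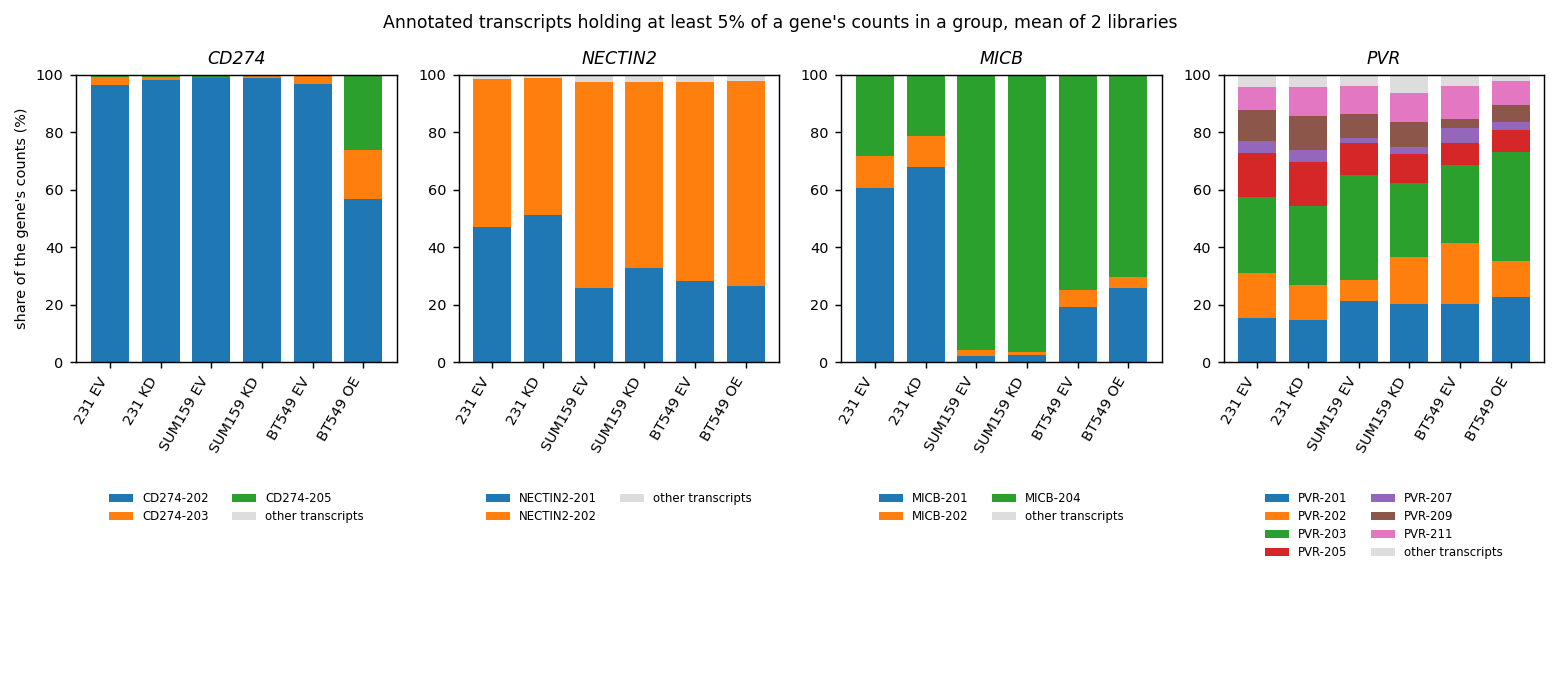
Mean share of a gene's counts (y axis, percent; 2 libraries a group) held by each annotated transcript of CD274, NECTIN2, MICB and PVR in the 6 groups, with transcripts under 5% in every group in light grey; 231 stands for MDA-MB-231. MICB-201 holds most counts in MDA-MB-231 and almost none in SUM159. CD274-202 has a lower share in BT549 OE alone, where the gene had only 15 and 24 counts.

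The genes whose log2 CPM over the 12 libraries was most like that of a member, among 12590 genes averaging 50 counts or more, are given as a description, since the libraries share 3 cell lines and many genes follow the lines. For CD274 they were PRKAA2 (Pearson's r = 0.989) and SAMD12 (0.984), and for NT5E FAM199X (0.990) and GRB2 (0.988). PDCD1LG2 was most like SLC6A15 (0.964) and B2M (0.962), CD276 most like ATG10 (0.993) and CA12 (0.993), and CD47 most like MICALL1 (0.991) and DOLK (0.990). For PVR they were MRPS34 (0.991) and CHRNA5 (0.987), for NECTIN2 PDK2 (0.991) and SH3BP5L (0.991). MICA was most like ZNF76 (0.976) and VPS29 (0.975), MICB most like STAU2 (0.986) and PPP6R1 (0.980), and ULBP2 most like FAM241B (0.991) and KIFC3 (0.985).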

How the data were processed

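The 12 libraries of polysome-associated RNA (2 a group) were grouped by their labels. By the methods, Trimmomatic, HISAT2 (GRCh38) and SAMtools served to trim, align and deduplicate the reads. The authors deposited expected counts per Ensembl transcript, not normalized, and the counting tool, annotation and strand setting are not given in the sources used here. For the libraries the labels give a poly(A) kit, but the methods a total RNA kit with rRNA depletion. In 5.08% of rows the MDA-MB-231 and SUM159 columns hold a question mark, which was counted as 0 (no transcript of the 10 genes is affected). No listed transcript is at 0 in all 4 BT549 libraries, so genes without a row were not analysed here.

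Transcripts were matched to GENCODE 44 (99.2% to 99.4% of the counts of a library), summed per symbol and rounded. TPM used GENCODE transcript lengths. In R 4.3.3, edgeR 4.0.16 kept 16538 genes with filterByExpr, scaled by TMM and tested contrasts of 6 group means in 1 quasi-likelihood model (6 residual degrees of freedom, common dispersion 0.000835), with calls at a Benjamini-Hochberg adjusted p under 0.05. The standard error is the fold change divided by the square root of F. The test was checked on simulated counts drawn with the common dispersion for every gene, so a spread that differs between genes was not covered. Libraries totaled 22954226 to 27434677, a 0 is compatible with up to 3 counts, and such limits cover counting error only, since reads carry no molecular identifiers. Replicates differed by more than sampling noise, so no library is a copy of another. Python 3.11.15 with pandas 2.3.3, numpy 2.4.6, scipy 1.17.1 and matplotlib 3.10.9 made the tables and figures. Alternatives used DESeq2 1.42.0, other scalings and filters, a replicate block, each line alone, protein-coding or single transcripts, no marked transcripts, and each library left out in turn.

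The 10 genes, the related lists and the motifs were chosen with earlier results of these data known. Named are the 10 genes, TRMT112, up to 3 called genes of each list and TRMT112 comparison with the smallest p, and the 2 genes most like each member. SIRPA, the levels of marker genes and 2 genes at 0 in BT549 EV were given as context. A gene that this rule gives is not reported here.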

Additional observations from a re-analysis of the deposited data

Results flagged for a closer look

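For 5 of the 10 genes the effect of KD differed between MDA-MB-231 and SUM159 by the test of the difference itself in the same edgeR model, where 50.9% of all genes tested did. The difference, MDA-MB-231 minus SUM159 on the log2 scale, was -1.92 for CD274 and -1.09 for PDCD1LG2, so that both PD-1 ligands stood lower relative to EV in MDA-MB-231. For CD274, both KD libraries lay below both EV libraries in MDA-MB-231 and above both EV libraries in SUM159. The PDCD1LG2 difference was not called when transcripts were tested in place of genes (-1.08, edgeR adjusted p = 0.223). The difference was -0.39 for MICA, which rose in both lines. It was 0.25 for NT5E and 0.23 for CD47, which also rose in both. TRMT112 itself fell further in MDA-MB-231 (a difference of -0.47, standard error 0.06, edgeR adjusted p = 1.83e-07), and the part of this in the differences above was not tested. Groups of 2 libraries were too small for a test of single libraries that stand apart.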

How the results depend on the processing

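Of 980 values of the 10 genes under an alternative, 930 kept direction and side of the threshold, 12 lost and 8 gained the call, and 30 changed sign. The replicate block, each line fitted alone and leaving out marked transcripts changed no call or direction of a member. Requiring a 2-fold change left 1 member called in MDA-MB-231 KD, 0 in SUM159 KD, 2 for the difference of the KD effects and 5 for BT549 EV against SUM159 EV. With the main transcript of each gene alone, 5 members were called in MDA-MB-231 KD and 5 in SUM159 KD: there PDCD1LG2, CD47, NECTIN2 and MICB lost the call and PVR gained one, as lower. In that fit 66844 transcripts were tested and 2341 called in MDA-MB-231 KD, against 6240 genes, and single-transcript PDCD1LG2 and ULBP2 lost calls too, with SEs above those of the gene fit. The sign changed mostly for values near 0, and the cause was not tested. Past the threshold after the change were MICB between MDA-MB-231 and SUM159 EV and PVR in SUM159 KD, both with the main transcript alone. With library size alone, PVR was at -0.0197 in MDA-MB-231 KD and -0.0017 in SUM159 KD, its KD difference was -0.0180 and that of MICB -0.0380, and MICA was at 0.0512 between MDA-MB-231 and SUM159 EV. This scaling moved the median of all genes to -0.34 for BT549 EV against MDA-MB-231 EV and -0.27 against SUM159 EV, and the higher share of the genes called from 56.2% to 36.7% in MDA-MB-231 KD and from 49.1% to 38.4% for BT549 EV against MDA-MB-231 EV. With RLE size factors the KD difference of MICB was -0.0175 and MICA between those EV groups 0.0116, and with DESeq2 they were -0.0179 and 0.0116. With a mean of at least 50 counts the KD differences were -0.0042 for PVR and -0.0241 for MICB, and without a filter 0.0175 for CD276. With protein-coding transcripts alone PVR was at -0.0024 in MDA-MB-231 KD, and the KD differences were -0.0314 for PVR and -0.0385 for MICB. With the main transcript alone MICB was at -0.0734 in MDA-MB-231 KD, -0.3937 for the KD difference and -0.7120 between MDA-MB-231 and SUM159 EV, PVR at -0.4863 in SUM159 KD, CD276 at 0.0511 for the KD difference, MICA at 0.1036 between MDA-MB-231 and SUM159 EV and NECTIN2 at 0.0767 between BT549 and MDA-MB-231 EV. Leaving out each library in turn, where the lone library left in a group is assumed to vary like the others, the KD differences ranged from -0.0509 to 0.0514 for CD276, from -0.0378 to 0.0750 for MICB and from -0.1525 to 0.2914 for ULBP2.

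Same-numbered libraries did not deviate together: their correlations over 12590 genes were 0.02, -0.02 and 0.00376 in MDA-MB-231, SUM159 and BT549. With the replicate block 8, 8, 5 and 10 members were called in MDA-MB-231 KD, SUM159 KD, the difference of the KD effects and BT549 OE, as without it, and 6217 genes against 6240 in MDA-MB-231 KD. Depth limits PDCD1LG2, ULBP2 and CD274 in BT549 OE, where single libraries held as few as 15 counts.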
